A study of Arabidopsis thaliana with 6 samples.

Results

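The PIP genes encode the plasma membrane intrinsic proteins, the aquaporins that let water pass the plasma membrane of plant cells. The 10 described here are PIP1;1 (PIP1A, gene-AT3G61430), PIP1;2 (PIP1B, gene-AT2G45960), PIP1;3 (PIP1C, gene-AT1G01620), PIP1;4 (PIP1E, gene-AT4G00430), PIP1;5 (PIP1D, gene-AT4G23400), PIP2;1 (PIP2A, gene-AT3G53420), PIP2;2 (PIP2B, gene-AT2G37170), PIP2;3 (PIP2C, gene-AT2G37180), PIP2;4 (PIP2F, gene-AT5G60660) and PIP2;7 (PIP3A, gene-AT4G35100). They were chosen by locus identifier and are 10 of the 13 PIP genes and of the 38150 genes measured. The other 3 are PIP2;5 (PIP2D), PIP2;6 (PIP2E) and PIP2;8 (PIP3B). The letter names are those of the RefSeq annotation and are used from here on, PIP3A and PIP3B being members of the PIP2 group.

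RNA of Arabidopsis seedlings, labelled as whole plants and 9 days old, was sequenced in 6 libraries. Of these, 3 were of the wild type (WT, accession Col-0) and 3 of the nid1 knockout mutant. Before sampling, all plants had grown with 20 mM nitrate, had been moved to medium without enough nitrate and had received 0.05 mM nitrate for 6 h, so a low supply is shared by both genotypes. Which locus is mutated in nid1 is not stated, nor how many alleles or lines were used. Nothing says that the 3 libraries of a genotype were grown separately, so the p-values refer to the scatter among these libraries and part of it may be technical. The values are FPKM, fragments per length of transcript scaled to the library, with 1 value per gene and library, so levels can be compared between genes.

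Aquaporins are channels built of subunits, each with its own pore, and the pore is lined by a pair of asparagine-proline-alanine (NPA) motifs that let water through in single file. Plants hold several families, of which the PIPs sit in the plasma membrane and the TIPs in the membrane of the vacuole. PIP1 proteins are known to need PIP2 partners to reach the plasma membrane efficiently, while PIP2 proteins reach it alone. In roots PIPs carry much of the water that crosses living cells, and root water uptake is known to respond to nitrate supply.

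The gene models and sequences below come from the RefSeq annotation of TAIR10.1, whose locus tags match those of the deposited table. All 13 PIP genes have 4 exons in the model used, and the coding length lies between 837 and 876 bases. Each holds exactly 2 sets of in-frame codons for the NPA motif, and these start 363 bases apart in all 13. The stretch around the first set is shown for the PIP1 and PIP2 members of highest level and for a pair of neighbours described next, in coding sense, with the NPA codons in capitals.
PIP1B: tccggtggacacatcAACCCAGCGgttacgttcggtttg
PIP2A: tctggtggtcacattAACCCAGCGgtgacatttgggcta
PIP2B: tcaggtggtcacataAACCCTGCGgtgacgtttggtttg
PIP2C: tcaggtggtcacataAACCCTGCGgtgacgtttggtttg

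PIP2B (chromosome 2, 15613368 to 15615022, minus strand) and PIP2C (chromosome 2, 15617635 to 15619155, plus strand) stand head to head, with 2612 bases between them. PIP2C was first described as RD28, a gene responsive to desiccation. Their coding sequences are identical at 813 of 858 bases, or 94.8%. Over the 38 pairs of the same group the median identity was 72.3%, and the highest apart from this pair was 87.6%. Over the 40 pairs of a PIP1 and a PIP2 gene the median was 65.2%. The pair matters for the values: 142 of the 1120 stretches of 101 bases in the PIP2C transcript, the read length of the study, also occur in the PIP2B transcript. The other 11 PIP genes share no stretch of even 50 bases with a transcript of another gene, and no PIP gene overlaps another gene. Both are therefore uncertain as single genes, the lower PIP2C more so, since no source used here says how the authors divided shared fragments. The 120 coding bases that differ most between them, from coding base 415 to 534, are shown with the 16 differing bases in capitals.
PIP2B: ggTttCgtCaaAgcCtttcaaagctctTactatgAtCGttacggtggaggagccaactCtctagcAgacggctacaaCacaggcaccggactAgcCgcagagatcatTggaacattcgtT
PIP2C: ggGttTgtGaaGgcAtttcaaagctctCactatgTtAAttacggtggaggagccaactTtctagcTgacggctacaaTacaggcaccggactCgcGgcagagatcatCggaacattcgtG
Upstream of their starts the 2 genes share little. Over 250 bases before the annotated start their identity was 44.4%, against a median of 47.0% over all 78 pairs of PIP genes. The last 120 bases before each start, chr2:15615023-15615142 on the minus strand for PIP2B and chr2:15617515-15617634 on the plus strand for PIP2C, are shown because the levels of the 2 genes lie far apart.
PIP2B: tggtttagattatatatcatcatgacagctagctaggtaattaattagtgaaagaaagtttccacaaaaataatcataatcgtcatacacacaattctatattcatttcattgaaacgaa
PIP2C: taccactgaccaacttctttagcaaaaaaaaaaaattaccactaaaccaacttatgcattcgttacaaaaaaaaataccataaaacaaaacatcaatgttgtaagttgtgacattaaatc
The letters ACGTG, the core of the abscisic acid response element, occurred on neither strand in the 250 bases of any of the 13 PIP genes, while 22.9% of 27443 protein-coding genes held them there. The letters TATAAA, on either strand, occurred in 6 of the 13 and in 47.3% of all. These counts describe letters in a window and say nothing of binding.

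The root beta-glucosidase PYK10 lay between 3429 and 3993 FPKM in WT and between 2752 and 2900 FPKM in nid1. Of the 15 root markers used, the xylem channel gene SKOR was near 0, at 0.126 to 0.176 FPKM in WT and 0.221 to 0.266 FPKM in nid1. The 11 markers of green shoot tissue ranged from the chloroplast carbonic anhydrase CA1, at 0.659 to 1.44 FPKM, to the Rubisco small subunit gene RBCS1A, at 87.4 to 258 FPKM. Transcripts of both marker groups were thus present in these samples, which are labelled as whole plants. With CA1 at 1.44 FPKM or less and PYK10 at 2752 FPKM or more, the markers do not establish that shoot made up much of the RNA. The part of each organ in the RNA was not measured. The summed level of the green markers was 292 to 336 FPKM in WT and 426 to 776 FPKM in nid1. That of the root markers was 3935 to 4615 FPKM in WT and 3378 to 3504 FPKM in nid1, most of it PYK10. Without PYK10, a sum added after the values were seen, the other 14 root markers came to 506 to 657 FPKM in WT and 604 to 626 FPKM in nid1, with the nid1 sums inside the WT range. In whole plants a change in the mass of an organ and a change of RNA per cell cannot be told apart. WT replicate 2 stood apart from the other libraries over all genes and had the largest FPKM total.

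The 10 PIP genes had mean levels between 10.2 and 448 FPKM, and none passed the test for a difference between nid1 and WT. Summed over the 10 genes, the WT libraries measured 2397, 2849 and 1975 FPKM and the nid1 libraries 2567, 2629 and 2389 FPKM, listed here and in what follows in the order of replicates 1, 2 and 3. The 3 nid1 sums lay inside the range of the WT sums. The means were 2407 ± 438 FPKM in WT and 2528 ± 125 FPKM in nid1 (SD, n = 3 each), a ratio of 1.05, which became 1.16 when WT replicate 2 was left out and 0.964 when WT replicate 3 was. These sums made up 0.260% to 0.328% of the FPKM total of a WT library and 0.322% to 0.327% of that of a nid1 library.

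**Figure D1:**
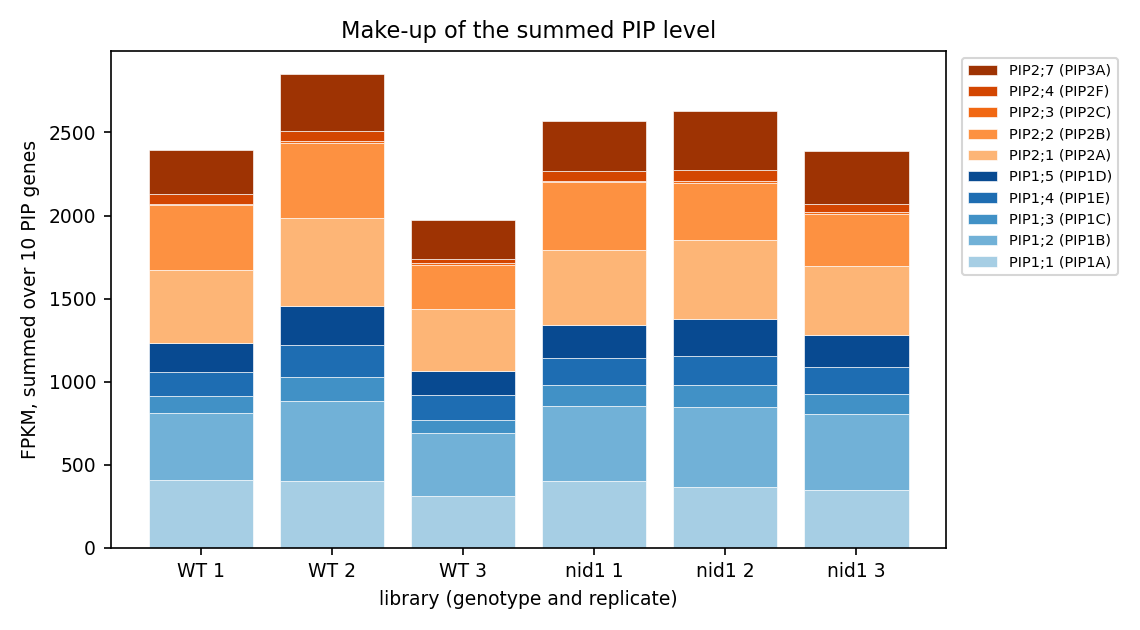
Stacked bars give the FPKM of the 10 PIP genes in each of the 6 libraries, PIP1 genes in blue and PIP2 genes in orange, from 0 on a linear axis. The tallest bar, WT replicate 2 at 2849 FPKM, and the shortest, WT replicate 3 at 1975 FPKM, are both wild type.

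Of the 10 genes, limma called 0 at an adjusted p under 0.05, where it called 0.0877% of all 20533 tested genes, 0.0633% as higher and 0.0244% as lower in nid1. At an unadjusted p under 0.05 there was 1 gene, PIP2C, which was lower in nid1, where 6.21% of tested genes passed, 3.65% as higher and 2.56% as lower. The groups did not overlap in 1 of the 10, again PIP2C, where 10.3% of tested genes had groups apart, 5.5% with nid1 higher and 4.79% with nid1 lower. At 1 of 10 genes, both counts are near the background. The log2 changes, nid1 minus WT on the scale of log2(FPKM + 1), lay between -0.34 and 0.36, with 7 above and 3 below 0 and a median of 0.09. Over all tested genes the median was 0.00022, with 50.05% above 0. Without WT replicate 2 the median of the 10 was 0.20, and without WT replicate 3 it was -0.0023. The 95% intervals of the 10 changes reached from -0.64, the lowest bound, to 0.98, the highest.

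The order of the genes was led by 5 of similar level. PIP2A, PIP1B, PIP1A, PIP2B and PIP3A had means over the 6 libraries of 448, 443, 372, 363 and 303 FPKM. Among these, PIP2A exceeded PIP1B in only 2 of 6 libraries, both WT, and was below it in every nid1 library. PIP1A exceeded PIP2B in 4 and PIP2B exceeded PIP3A in 4. The order of those neighbours thus varied between libraries, and differences in level between genes were not tested. PIP1B exceeded PIP1A in all 6 libraries, but their ranges overlapped in WT. A step followed to PIP1D at 194 FPKM, which lay below PIP3A in every library with no overlap of ranges in either genotype. PIP1E, PIP1C and PIP2F came next at 163, 119 and 52.6 FPKM. PIP1D and PIP1E, and likewise PIP1E and PIP1C, overlapped in WT but not in nid1. PIP2C was the lowest of the 10, at 10.2 FPKM, below PIP2D and PIP2F in all libraries. In each library the 4 highest genes held 63.9% to 68.6% of the summed level.

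**Figure D2:**
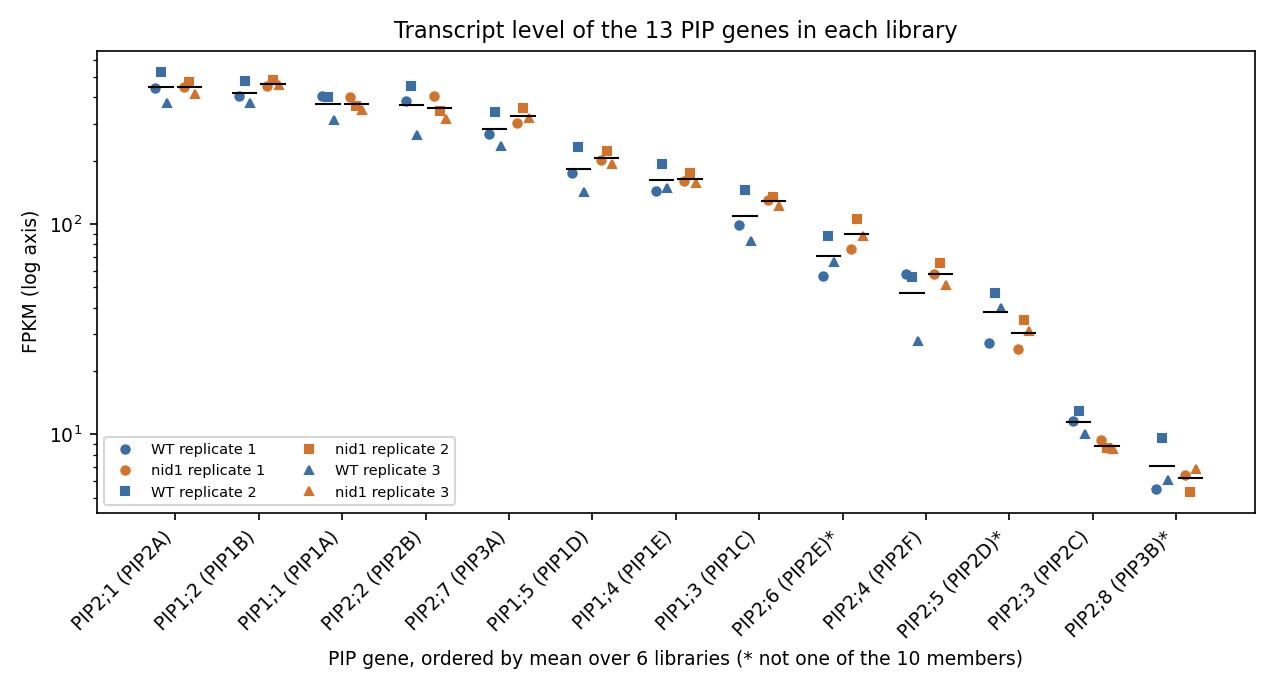
Points give the FPKM of each of the 13 PIP genes in each library on a log axis, in order of the mean over the 6 libraries, with WT in blue, nid1 in orange, symbols for replicates and black bars for the mean of a genotype. The 5 leading genes lie within 235 to 530 FPKM, and PIP2;3 (PIP2C) and PIP2;8 (PIP3B) lie below 13 FPKM in all libraries.

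The 5 PIP1 genes together held slightly more of the summed level than the 5 PIP2 genes. Their share was 51.3%, 51.0% and 53.8% in the WT libraries and 52.4%, 52.4% and 53.5% in those of nid1. The ranges overlapped, and the means of 52.1% ± 1.52 and 52.8% ± 0.655 (SD, n = 3 each) were 0.704 percentage points apart, which became 0.187 when WT replicate 2 was left out and 1.58 when WT replicate 3 was. With the uncertain pair PIP2B and PIP2C left out of the sum, the PIP1 share was 60.6% to 62.5% in the libraries. The difference between the genotypes was then -0.0309 percentage points.

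PIP1B (PIP1;2; chromosome 2, 18910081 to 18911982, plus strand), which is known to contribute to the water conductance of roots and leaves and to carbon dioxide passage, was the highest PIP1 gene. It measured 408, 480 and 377 FPKM in WT and 453, 482 and 459 FPKM in nid1. The nid1 values clustered at the upper end of the WT range and overlapped it. The log2 change was 0.15 (95% interval -0.22 to 0.51, limma adjusted p = 1.00), and it was 0.24 when WT replicate 2 was left out and 0.068 when WT replicate 3 was. PIP1A (chromosome 3, 22733243 to 22735394, plus strand), its closest relative with 87.6% of coding bases identical, measured 406, 403 and 312 FPKM in WT and 400, 366 and 348 FPKM in nid1. Here all 3 nid1 values lay within the WT range, and the interval of the log2 change ran from -0.39 to 0.38.

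PIP1C (chromosome 1, 225665 to 227543, minus strand) had the largest upward estimate of the PIP1 genes. Its values were 98.5, 145 and 83.1 FPKM in WT and 130, 135 and 122 FPKM in nid1. WT replicate 2 was above all nid1 libraries and the other WT libraries were below them. The log2 change was 0.28 (95% interval -0.19 to 0.75, limma adjusted p = 1.00). Without WT replicate 2 it was 0.50 with a limma adjusted p of 0.144, the lowest that any of the 10 genes reached under the 14 other settings tried, and without WT replicate 3 it was 0.11. PIP1D (chromosome 4, 12220641 to 12222468, plus strand) measured 175, 233 and 142 FPKM in WT and 202, 221 and 192 FPKM in nid1. Its nid1 values lay inside the WT range, and its log2 change of 0.19 was 0.38 when WT replicate 2 was left out and 0.024 when WT replicate 3 was. PIP1E (chromosome 4, 185285 to 187680, minus strand), known to carry hydrogen peroxide into cells in immunity, measured 144, 194 and 148 FPKM in WT and 160, 174 and 157 FPKM in nid1. It too stayed inside the WT range, with a log2 change of 0.03 (95% interval -0.33 to 0.39).

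PIP2A (PIP2;1; chromosome 3, 19803473 to 19805730, minus strand), the best studied PIP2 gene, encodes a water and hydrogen peroxide channel that acts in root conductance and in stomatal closure. It measured 444, 530 and 374 FPKM in WT and 448, 474 and 417 FPKM in nid1. The means, 449 ± 77.8 and 446 ± 28.9 FPKM (SD, n = 3 each), were nearly the same, and the 95% interval of the log2 change ran from -0.41 to 0.41. Its bounds stand for a fall by 24.6% and a rise by 33.1%, without adjustment for the number of genes. PIP2B, known as a contributor to root water conductance, measured 386, 455 and 265 FPKM in WT and 407, 346 and 316 FPKM in nid1. Its nid1 values also lay within the WT range.

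PIP3A (PIP2;7; chromosome 4, 16708361 to 16710407, plus strand), a water channel whose protein is known to be removed from the membrane together with the stress protein TSPO, measured 267, 342 and 235 FPKM in WT and 301, 357 and 318 FPKM in nid1. WT replicate 2 lay within the nid1 range and the other WT libraries below it. The log2 change was 0.22 (95% interval -0.19 to 0.64, limma adjusted p = 1.00), and it was 0.37 when WT replicate 2 was left out and 0.0999 when WT replicate 3 was. PIP2F (PIP2;4; chromosome 5, 24375368 to 24377206, minus strand), a gene expressed mainly in roots, measured 57.7, 55.9 and 27.9 FPKM in WT and 57.8, 65.2 and 51.3 FPKM in nid1. WT replicate 3 alone was low. The log2 change of 0.36 was the largest upward one of the 10 and had the widest interval, -0.26 to 0.98, and it was 0.026 when WT replicate 3 was left out and 0.54 when WT replicate 1 was.

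PIP2C (PIP2;3) was the only member whose values separated by genotype. It measured 11.6, 12.9 and 10.05 FPKM in WT and 9.39, 8.60 and 8.49 FPKM in nid1. Every nid1 library lay below every WT library, by a narrow margin between WT replicate 3 and nid1 replicate 1. The means were 11.5 ± 1.42 and 8.83 ± 0.489 FPKM (SD, n = 3 each), with a log2 change of -0.34 (95% interval -0.64 to -0.05, limma adjusted p = 0.688). It therefore failed the test over all genes. The estimate was below 0 in all 14 other settings, between -0.43 and -0.26, with adjusted p between 0.380 and 1.00. The log2 change of its partner PIP2B was -0.02 (95% interval -0.54 to 0.50), and the difference between the 2 changes was not tested. The ratio of PIP2B to PIP2C was 33.3, 35.3 and 26.4 in WT and 43.4, 40.3 and 37.3 in nid1. The ratios did not overlap, but the ratio was chosen after the values were seen and was not tested. Since stretches of both transcripts are identical and PIP2B is far higher, the part of shared fragments in the value of PIP2C was not tested.

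**Figure D3:**
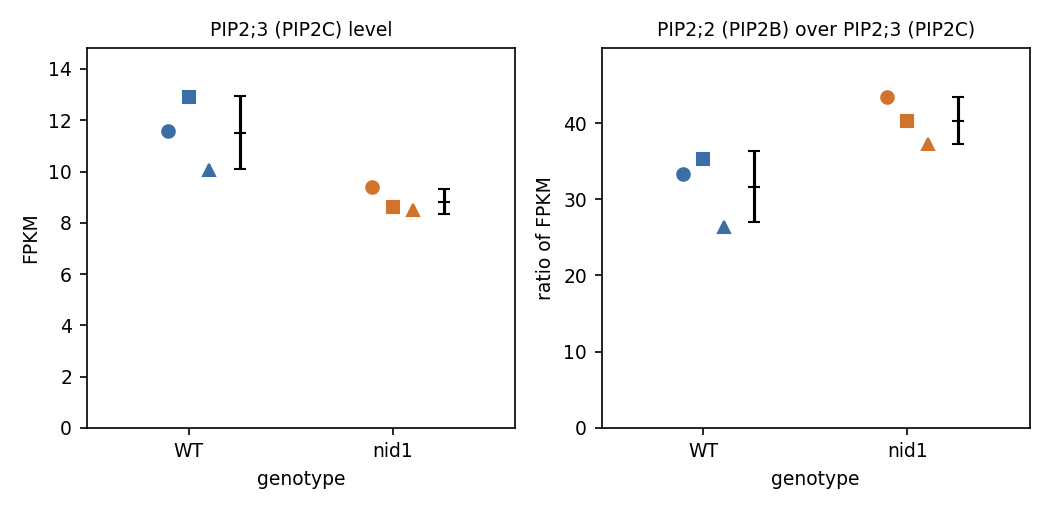
The left panel gives the FPKM of PIP2;3 (PIP2C) and the right panel the ratio of the FPKM of PIP2;2 (PIP2B) to that of PIP2;3, per library, with the mean and SD of 3 libraries in black beside the points and axes from 0. PIP2;3 lies at 10.05 to 12.9 FPKM in WT and 8.49 to 9.39 FPKM in nid1.

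In the FPKM as deposited, most members were high together in one wild-type library and low together in another. Of the 10, 8 had their highest WT value in WT replicate 2, where 51.9% of tested genes did, and 9 had their lowest in WT replicate 3, where 32.1% of tested genes did. The peak in WT replicate 2 depends on the scaling of the libraries. As a share of the FPKM total, the summed level was 0.328%, 0.295% and 0.260% in WT replicates 1, 2 and 3. Centred on each gene's mean over the 6 libraries, the median log2 value of the 10 was -0.06, 0.25 and -0.30 in the WT libraries, while over all tested genes it was -0.04, 0.07 and -0.03. In the nid1 libraries the medians of the 10 were 0.06, 0.12 and -0.02. The replicates of nid1 thus lay closer together. The coefficient of variation was larger in WT than in nid1 for all 10 genes, with medians of 18.4% and 6.78%. This held for 74.2% of all tested genes, with medians of 17.6% and 10.02%, and for 85.8% of the 3476 tested genes with a mean of at least 50 FPKM, with medians of 19.2% and 7.97%.

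**Figure D4:**
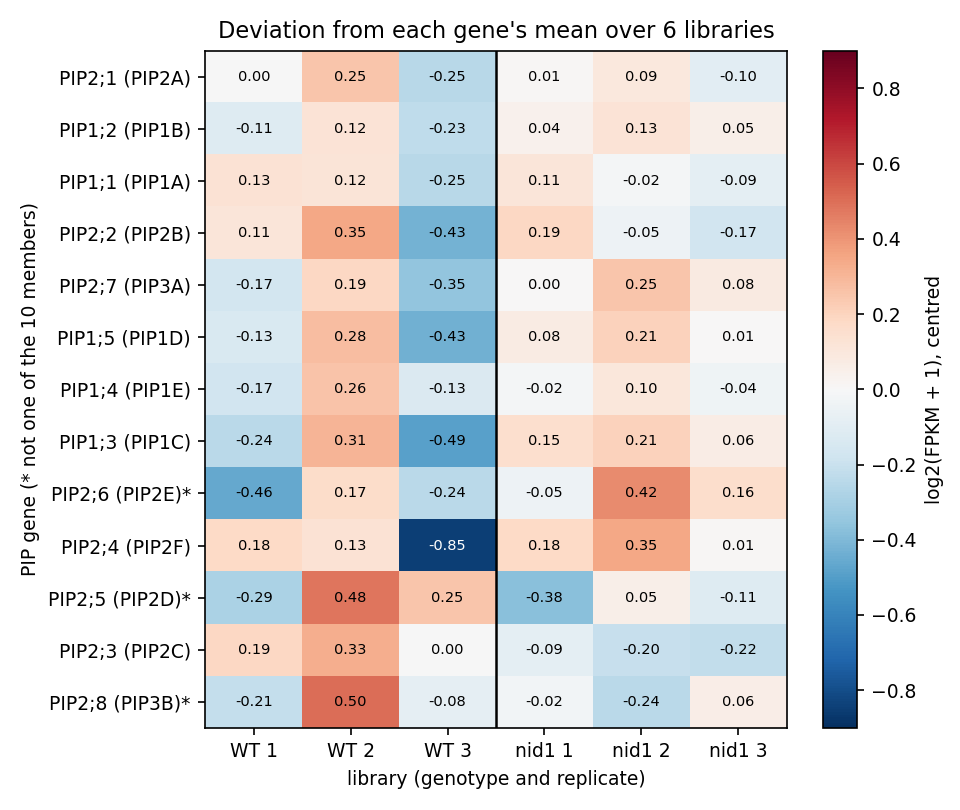
Each cell gives a PIP gene's log2(FPKM + 1) in a library minus its mean over the 6 libraries, with red above and blue below 0. The FPKM are as deposited, without rescaling of the libraries. WT replicate 2 is above 0 in all 13 rows, and WT replicate 3 is below 0 in 12, with PIP2;5 (PIP2D) above 0 and PIP2;3 (PIP2C) close to 0.

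Likeness of pattern was measured as the root mean square difference of centred log2 values over the 6 libraries, which share depth and scaling. The closest pair was PIP1C and PIP1D at 0.065, followed by PIP1D and PIP3A at 0.068. PIP2C and PIP2F were the farthest pair, at 0.445, and the 2 genes with the largest mean difference from the other members, 0.274 and 0.298. PIP2A, at 0.146, had the smallest. Outside the family, the genes of at least 10 FPKM closest to the summed PIP level were WLIM2a at 0.0193, AT2G40113 at 0.0228 and XT2 at 0.0281, of 11537 compared. Being the smallest of so many distances, and taken to a sum, these values are not comparable with distances between single members. WLIM2a measured 50.7, 60.1 and 42.1 FPKM in WT and 55.6, 54.6 and 51.0 FPKM in nid1.

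The 3 PIP genes outside the set had no call either. PIP2E (PIP2;6) measured 56.6, 88.1 and 66.1 FPKM in WT and 75.7, 105 and 87.6 FPKM in nid1, with a log2 change of 0.36 (limma adjusted p = 0.954). PIP2D (PIP2;5) measured 27.3, 47.2 and 39.98 FPKM in WT and 25.6, 34.8 and 30.9 FPKM in nid1. In these 2 genes the groups overlapped. PIP3B (PIP2;8) was the lowest PIP gene, with means of 7.08 ± 2.25 and 6.19 ± 0.762 FPKM (SD, n = 3 each).

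The other aquaporin families gave no call by limma at an adjusted p under 0.05. For comparison, 6.21% of all tested genes had an unadjusted p under 0.05 and 10.3% had groups apart. Of the 10 TIP genes 6 passed the filter on low values, with a median log2 change of 0.18 and 1 gene at an unadjusted p under 0.05. This was TIP2;1, at 70.3, 65.5 and 39.8 FPKM in WT and 78.6, 90.9 and 91.7 FPKM in nid1 (limma adjusted p = 0.654). Its groups did not overlap, with nid1 higher. TIP4;1 and TIP1;2, next by p, measured 69.2 ± 11.2 and 80.8 ± 11.9 FPKM and 585 ± 151 and 667 ± 68.9 FPKM in WT and nid1 (SD, n = 3 each). Of the 9 NIP genes, channels that also pass small solutes, 6 passed the filter, with a median of 0.0048 and 2 at an unadjusted p under 0.05. NIP2;1, known as a lactic acid channel of roots short of oxygen, measured 101, 167 and 182 FPKM in WT and 84.2, 52.7 and 43.2 FPKM in nid1. Its groups did not overlap, and its log2 change of -1.32 (95% interval -2.003 to -0.64, limma adjusted p = 0.265) was larger in size than that of any PIP gene. NIP1;1 measured 149, 162 and 102 FPKM in WT and 181, 193 and 187 FPKM in nid1 (limma adjusted p = 0.749), again with no overlap but with nid1 higher. NIP6;1 measured 10.8 ± 1.55 and 13.4 ± 1.7 FPKM (SD, n = 3 each). All 3 SIP genes, of the small basic family, lay within 0.10 of 0 on the log2 scale.

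**Figure D5:**
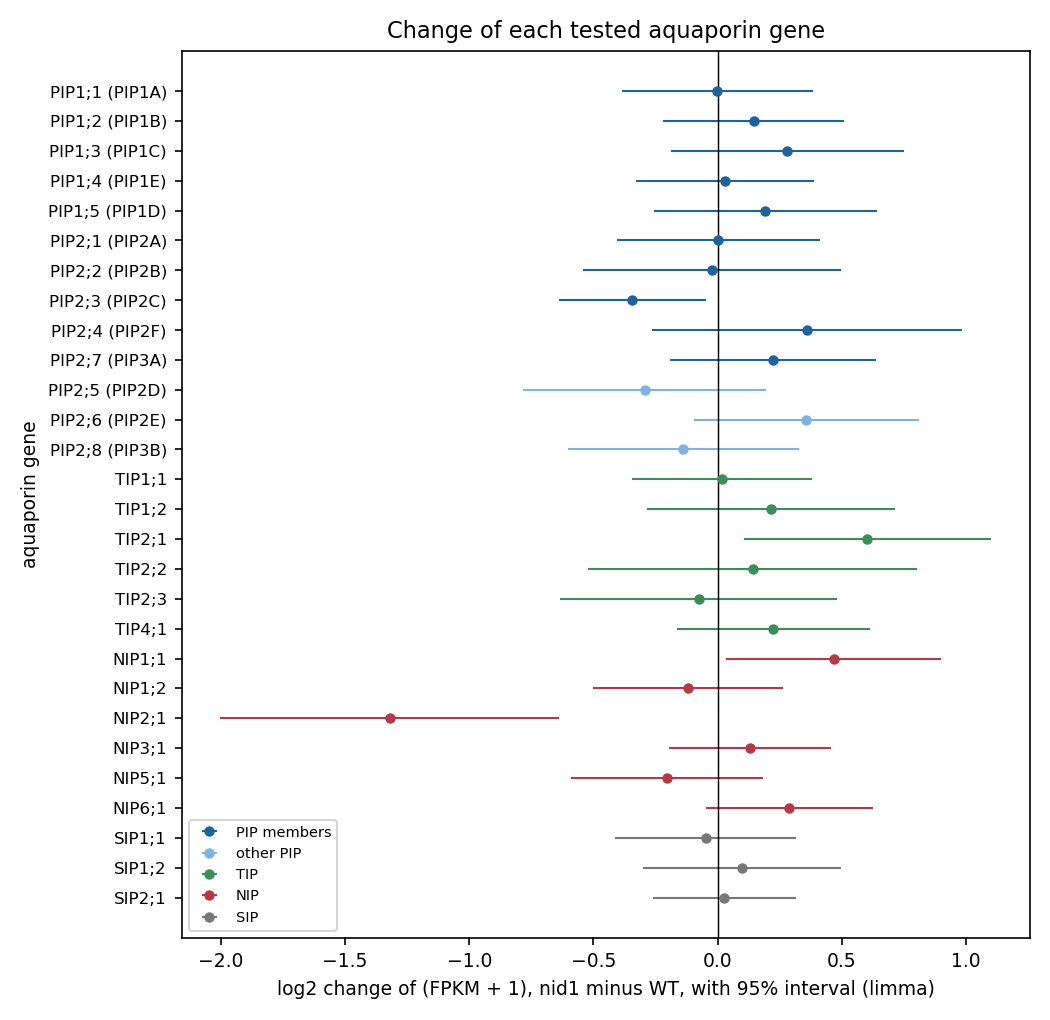
Points give the log2 change of (FPKM + 1), nid1 minus WT, of the 28 tested aquaporin genes, with the 95% interval from limma, coloured by family. The 10 members lie between -0.34 and 0.36, and NIP2;1 is far to the left at -1.32.

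Genes listed as PIP regulators, acting on PIP proteins or in their wider control, were measured too. Of 13 such genes 11 passed the filter, limma called 0 of them at an adjusted p under 0.05, and 1 had an unadjusted p under 0.05, with a median log2 change of -0.03. This was OST1, the abscisic acid kinase that phosphorylates PIP2A in guard cells, at 15.5, 18.7 and 17.9 FPKM in WT and 14.8, 13.9 and 12.9 FPKM in nid1 (limma adjusted p = 0.753). Every nid1 value of OST1 lay below the WT range, as in 4.79% of tested genes, and 6.21% of tested genes had an unadjusted p under 0.05. QSK1, a receptor kinase that acts on aquaporins with SIRK1, measured 56.7 ± 5.59 and 50.7 ± 2.75 FPKM, and the syntaxin SYP121, which helps deliver PIPs to the membrane, 62.2 ± 10.104 and 56.5 ± 9.50 FPKM (SD, n = 3 each). TSPO was low, at 0.234 to 0.603 FPKM in WT and 0.0484 to 0.281 FPKM in nid1, and was not tested.

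Dehydration genes, which respond to water deficit and abscisic acid, did not pass the test. Of 14, 13 were tested, limma called 0, and 0 had an unadjusted p under 0.05, with 7 above and 6 below 0 and a median log2 change of 0.05. The 3 of smallest p were KIN1, with 42.6 ± 11.6 and 31.5 ± 10.6 FPKM, RAB18, with 2.87 ± 1.41 and 4.12 ± 2.00 FPKM, and LTI30, with 77.4 ± 19.6 and 63.2 ± 18.0 FPKM in WT and nid1 (SD, n = 3 each).

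Markers of organs differed in level between the genotypes in part, without a call. Of the 11 green markers limma called 0, with a median log2 change of 0.89. At an unadjusted p under 0.05, 8 were higher in nid1, where 3.65% of all tested genes were. The photosystem gene PSAD1 measured 23.3 ± 3.43 and 51.7 ± 12.0 FPKM, and the antenna genes LHCA1 and LHCB1.1 35.3 ± 11.2 and 101 ± 27.4 FPKM and 9.01 ± 5.09 and 40.3 ± 14.97 FPKM. Of the 15 root markers 14 were tested, limma called 0 and 0 had an unadjusted p under 0.05. Of the 14, 10 lay above and 4 below 0, with a median of 0.09. The endodermis genes CASP4 and MYB36 measured 19.4 ± 3.35 and 25.0 ± 3.03 FPKM and 15.4 ± 0.338 and 13.1 ± 0.803 FPKM, and PYK10 3761 ± 295 and 2848 ± 82.8 FPKM (SD, n = 3 each). In MYB36 and PYK10 the groups did not overlap, with nid1 lower. In SKOR, near 0 and not tested, they did not overlap either, with nid1 higher. Of all tested genes 10.3% had groups apart. All 4 guard cell markers were tested without a call or an unadjusted p under 0.05, and MYB60, SLAC1 and KAT1 measured 5.08 ± 0.579 and 5.58 ± 0.637 FPKM, 3.55 ± 0.194 and 3.83 ± 0.397 FPKM, and 7.5 ± 3.05 and 6.2 ± 0.29 FPKM (SD, n = 3 each). The part of organ mass in the PIP values was not tested.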

How the data were processed

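Per the labels' protocols, Trizol RNA went into a stranded mRNA kit and fragments were read from both ends over 101 bases. The authors deposited 1 FPKM per gene and library. That the values are FPKM follows from a Cuffdiff column name, per the file headers, and from their totals. Tools named in the submitters' processing notes, without roles, are bcl2fastq 2.20, Bowtie, TopHat2 2.0.13 and Cuffdiff 2.2.1. No source used here states the genome build, the library scaling or the division of shared fragments. TAIR10.1 locus tags were found for 37932 of 38150 identifiers, all 10 members included. In long genes with 1 transcript, 18.8% to 20.1% of low values lay within 0.1 of a whole fragment, where 20% is expected of evenly spread values, so counts were not recovered and depth is unknown.

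The test was limma 3.58.1 (R 4.3.3) on log2(FPKM + 1), two-sided, with a mean-variance trend and genotype alone. It ran over the 20533 genes that reached 1 FPKM in 3 or more libraries, with Benjamini-Hochberg adjustment over all of them. Fold changes on this scale understate those of low genes. The fit was also run on simulated data with the means and spreads of these genes. It called 8% of genes changed by 0.5 on the log2 scale and 82% of those changed by 1. In it 50 genes were changed at each of 0.5, 1, 2 and 3, with independent noise equal in both genotypes. The data gave only 18 calls, so their cutoff was stricter, and spread was wider in WT. The simulated rates can therefore be too high for these data, also for a change of 1. All PIP estimates were smaller in size than 0.5, so the absence of a call does not show that these genes are unchanged.

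The members and lists were chosen with earlier results of these data known. Named were all PIP genes, the 3 genes closest to the summed PIP pattern, and the called genes and 3 of smallest p of each other list. PYK10, SKOR, CA1 and TSPO are given as markers or partners, chosen after their values were seen where outside that rule. The transcript used for a gene is the one of coding length nearest the family median. The main fit did not pair libraries by replicate number, whose meaning is not stated.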

Additional observations from a re-analysis of the deposited data

How the results depend on the processing

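No PIP member was called by limma in any of the 14 other settings of the fit. Over all genes, where 18 were called, 70 were called with a replicate block and between 8 and 35 when 1 library was left out: for WT the counts were 9, 25 and 8 on omitting replicates 1, 2 and 3, and for nid1 35, 8 and 10. The cause was not tested. With other pseudocounts, filters, scalings or no variance trend the count was within 1.5 times of 18. The block changed no call of a PIP gene. Same-numbered libraries had correlations of deviations of -0.01, 0.13 and 0.30, the last being the highest of any WT and nid1 pair. Not every library correlated best with its own number. No source used here says what the numbers stand for, and whether they mark a batch was not tested. Estimates near 0 changed sign: PIP1A was 0.010 after rescaling by median ratios and 0.055 after rescaling to equal totals, where PIP2B was 0.036. Leaving out 1 library gave -0.13 to 0.063 for PIP1A, -0.050 to 0.16 for PIP1E, -0.12 to 0.13 for PIP2A, -0.24 to 0.15 for PIP2B and -0.28 to 0.079 for PIP3B, and the cause was not tested. In the genes that kept their sign it gave 0.068 to 0.24 for PIP1B, 0.11 to 0.50 for PIP1C, 0.024 to 0.38 for PIP1D, 0.026 to 0.54 for PIP2F, 0.0999 to 0.37 for PIP3A, 0.22 to 0.53 for PIP2E, -0.51 to -0.13 for PIP2D and -0.43 to -0.26 for PIP2C. The summed level, nid1 over WT, ranged from 0.964 to 1.16 when 1 library was left out. It was 1.06 and 1.099 under the scalings and 1.05 over all 13 PIP genes.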
